A study of Mus musculus with 12 samples.

Results

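Voltage-gated sodium and calcium channel genes were followed in the adult mouse spinal cord of animals with and without the C201R change in Gars, the gene of glycyl-tRNA synthetase. Members were all genes with a symbol of the Scn alpha or beta series or of the Cacna, Cacnb or Cacng series and a mean estimated count of at least 10 over the 12 libraries. Of 38924 genes in each table, 39 had such a symbol and 38 were members. Cacna1f, with a mean of 9.17 counts, fell just below the minimum, and Cacng6 (15.92) and Cacng1 (16.58) lay just above it. The rule used no difference between groups. The members comprised 9 sodium channel alpha subunits, 4 sodium channel beta subunits, 9 calcium channel alpha1 subunits, 4 alpha2delta subunits, 4 calcium channel beta subunits and 8 gamma subunits. All 38 passed the filter on low counts. Scn2a1, the older symbol under which the tables list Scn2a, does not match the pattern and is given only where named.

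Polyadenylated RNA of whole spinal cord was sequenced from mice aged 8 weeks, all on the B6J.Cg strain background, in 12 libraries. C201R animals are tagged C201R+/- and WT animals C201R+/+, which was read with the titles as heterozygous and wild type. The labels give the genotype of each library in a title and again in a library name, and these differ for 4 libraries. By title C201R holds libraries 1, 2, 3, 10, 11 and 12, and by library name it holds 1, 2, 3, 4, 9 and 10, with the other 6 labelled WT in each case. The 8 undisputed libraries are 1, 2, 3 and 10 (C201R) and 5 to 8 (WT). Which label is right was not decided here, so fitted differences are given under both, and group levels are those by library name unless a sentence says otherwise. Nothing in the labels ties each library to its own animal, and the p-values therefore reflect library-to-library spread, part of which may be technical.

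Libraries held between 27175421 and 38271405 estimated counts. The tissue label fitted its markers: Snap25 (neurons) lay between 1820 and 2100 CPM, Gfap (astrocytes) between 1460 and 1930 CPM, and Mbp (oligodendrocytes) between 12600 and 15900 CPM. CPM are counts set to a common library size by TMM scaling, without division by gene length. Titled sex disagreed with Xist and Y-linked transcripts in 6 of the 12 libraries, and high Xist was found in 3 libraries of each genotype by library name, but in 5 titled C201R and 1 titled WT. The main fits used titled sex as a term and so do not adjust for the sex these transcripts show. By title, that sex and genotype cannot be fully told apart. Of 7 measured motor neuron markers, 5 were lower and 2 higher by library name, and Chat, Chodl and Ahnak2 fell (edgeR adjusted p between 6.56e-05 and 0.00431). The sum of all 7 was 291 to 335 CPM in C201R against 423 to 561 CPM in WT. By title 5 were again lower, 0 were called by edgeR (3 at an unadjusted p under 0.05, lowest adjusted p 0.673 for Chat), and the sums overlapped at 291 to 465 CPM against 303 to 561 CPM. Of 8 general neuron markers, 8 were lower by library name and Stmn2 fell (-0.19 ± 0.04, edgeR adjusted p = 0.0342), whereas 5 were lower and 0 called by title.

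Voltage-gated sodium channels carry the inward current of the action potential. Their alpha subunit forms the pore, and the beta subunits tune gating and bind adhesion and cytoskeletal proteins. Calcium channels share this plan: an alpha1 subunit forms the pore, and alpha2delta and beta subunits bring it to the membrane. Among gamma subunits, Cacng1 and Cacng6 belong to the channel family known from skeletal muscle, while Cacng2, Cacng3, Cacng4, Cacng5, Cacng7 and Cacng8 encode TARPs, transmembrane partners of AMPA-type glutamate receptors. In the spinal cord these proteins set the firing of motor neurons and interneurons and the release of transmitter.

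Levels were compared between genes as TPM, which corrects for transcript length. Mean TPM was above 10 for 25 members, between 1 and 10 for 9 and below 1 for 4. Among sodium channel beta subunits, Scn4b, linked to resurgent current, had a lowest, median and highest TPM of 156.62, 179.1 and 188.58. Scn2b averaged 53.2 TPM and Scn3b 17.5 TPM. Scn4b was above Scn2b, and Scn2b above Scn3b, in 12 of 12 libraries.

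Among the pores, Scn1a was highest at 93.52, 101.4 and 114.77 TPM and made up between 45.0% and 51.3% of the summed TPM of the 9 alpha members. Scn8a, the channel of mature axon initial segments and nodes of Ranvier, had 80.23, 86.85 and 92.3 TPM, and was below Scn1a in all 12 libraries. Scn2a1 would have ranked next, with a mean of 37.1 TPM. The other alpha members were far lower: Scn3a, an alpha subunit known mainly from the developing nervous system, averaged 7.65 TPM, Scn7a, the sodium-sensing Nax channel, 4.87 TPM, and Scn9a, a channel of peripheral sensory neurons, 3.57 TPM. By mean TPM Scn10a, Scn11a and Scn4a lay below these, although Scn9a was above Scn10a in only 9 of 12 libraries. Scn10a was above Scn11a in 7 of 12 libraries, among them libraries 2, 4, 5, 6, 10 and 12, where each had at least 50 counts. In the remaining libraries neither exceeded 5 counts, so their order there cannot be read. Scn11a was above Scn4a in 5 of 12 libraries.

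For the calcium channels, P/Q-type Cacna1a led with 51.13, 57.3 and 62.2 TPM, ahead of N-type Cacna1b (mean 32.5 TPM) and R-type Cacna1e (18.6 TPM) in every library. These are the channels that trigger transmitter release at nerve terminals. T-type channels, which open near rest, were led by Cacna1g at 38.65, 52.16 and 56.77 TPM. L-type channels were lower: Cacna1c had 10.43, 12.28 and 13.16 TPM and Cacna1d averaged 7.72 TPM. Cacna1s, the L-type channel of skeletal muscle, ranged from 0.25 to 9.29 TPM.

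Among the auxiliary subunits, Cacna2d3 and Cacna2d2 averaged 40.8 and 39.5 TPM, and Cacna2d3 was the higher in only 8 of 12 libraries, so these neighbours did not differ beyond their spread. Cacna2d4, known from photoreceptors, averaged 0.958 TPM. The 4 calcium channel beta subunits spanned means from 24.6 TPM (Cacnb3) to 43.5 TPM (Cacnb4), and Cacnb4 made up at most 38.3% of their sum. Cacng7 led the TARPs at 106.33, 110.8 and 120.56 TPM and was 45.4% to 48.2% of the summed TPM of its class, followed by Cacng2 (stargazin; mean 54.2 TPM).

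**Figure D1:**
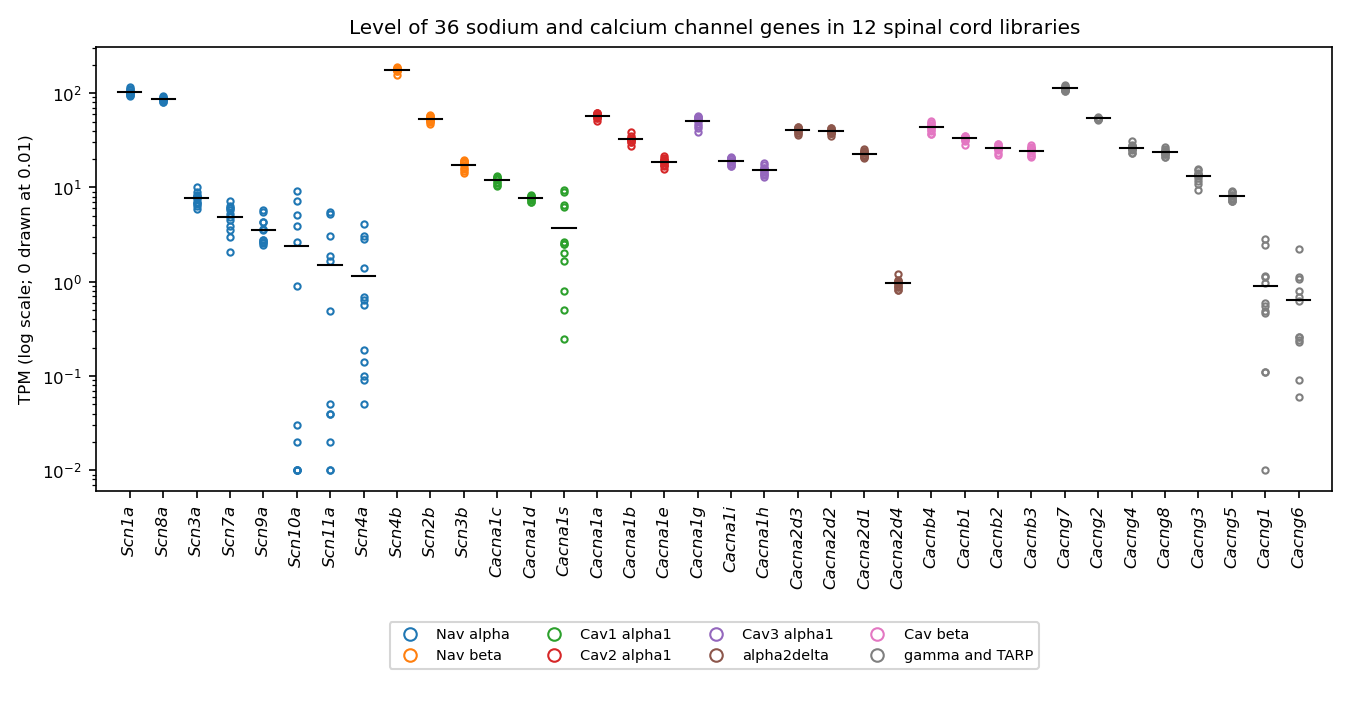
TPM of 36 members (log axis; a value of 0 is drawn at 0.01) in the 12 libraries, 1 circle per library, with a bar at the mean, grouped by subunit class. Scn4b, Cacng7, Scn1a and Scn8a are highest among those drawn, and the libraries of Scn10a, Scn11a, Scn4a, Cacna1s, Cacng1 and Cacng6 are spread much wider than those of other members.

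Most members varied little between libraries. The median coefficient of variation of CPM was 6.58% over the 38 members, beside 7.97% over all 17765 genes tested. It was under 10% for 26 members, between 10% and 20% for 4 and above 20% for 8: Scn7a, Scn9a, Scn10a, Scn11a, Scn4a, Cacna1s, Cacng1 and Cacng6. Cacng7 was among the steadiest, with 116 to 127 CPM and a coefficient of variation of 2.35%. Members were also long: their genes had a median length of 104.7 kb in GENCODE M21, against 24.8 kb for the 15243 protein-coding genes at the same count minimum, and 19 of 38 exceeded 100 kb, against 15.1% of those genes.

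By library name, none of the 38 members passed the edgeR quasi-likelihood test at an adjusted p of 0.05, beside 0.715% of all genes tested (127 of 17765). DESeq2, voom and limma also called 0. At an unadjusted p under 0.05 there was 1 member, Cacna2d3, or 2.63%, beside 12.8% of all genes. Fitted log2 differences (C201R minus WT) were above 0 for 24 members and below 0 for 14, with a median of 0.02 over the members and 0.00 over all genes. Their median size without sign was 0.03, against 0.06 for all genes. In no member did the 2 genotypes' CPM separate without overlap, which 1.64% of all genes did.

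By title the edgeR test again called no member, and no gene at all (0.0% of 17765), while 6.77% of all genes had an unadjusted p under 0.05. DESeq2 called 0 members here as well, and 1 member, Cacnb2, had an edgeR p under 0.05. Differences by title were above 0 for 25 members and below 0 for 13 (median 0.02), and the genotypes separated without overlap in no member and in 0.355% of all genes. In the 8 undisputed libraries, edgeR and DESeq2 called 0 of 38 members, and edgeR called 0.158% of 18384 genes. Cacna2d3 alone had an unadjusted edgeR p under 0.05 there, beside 12.7% of all genes. The CPM of 8.3% of all genes separated without overlap in these 8 libraries and of no member. These 3 comparisons share libraries and are not independent of one another.

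The intervals bound how large a difference could have gone unseen. By library name, the 95% interval of the difference lay within a 1.3-fold change in either direction for 30 of 38 members, by title for the same number, and in the undisputed libraries for 29. The 8 exceptions by library name and by title were the members of widest spread named above. A p above the threshold does not show equal levels, and for 6 of those 8 the intervals by library name reach beyond 3-fold, while those of Scn7a and Scn9a run from 0.602 to 1.46 times and from 0.624 to 1.63 times the WT level. By title they run from 0.854 to 1.79 times and from 0.659 to 1.55 times.

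**Figure D2:**
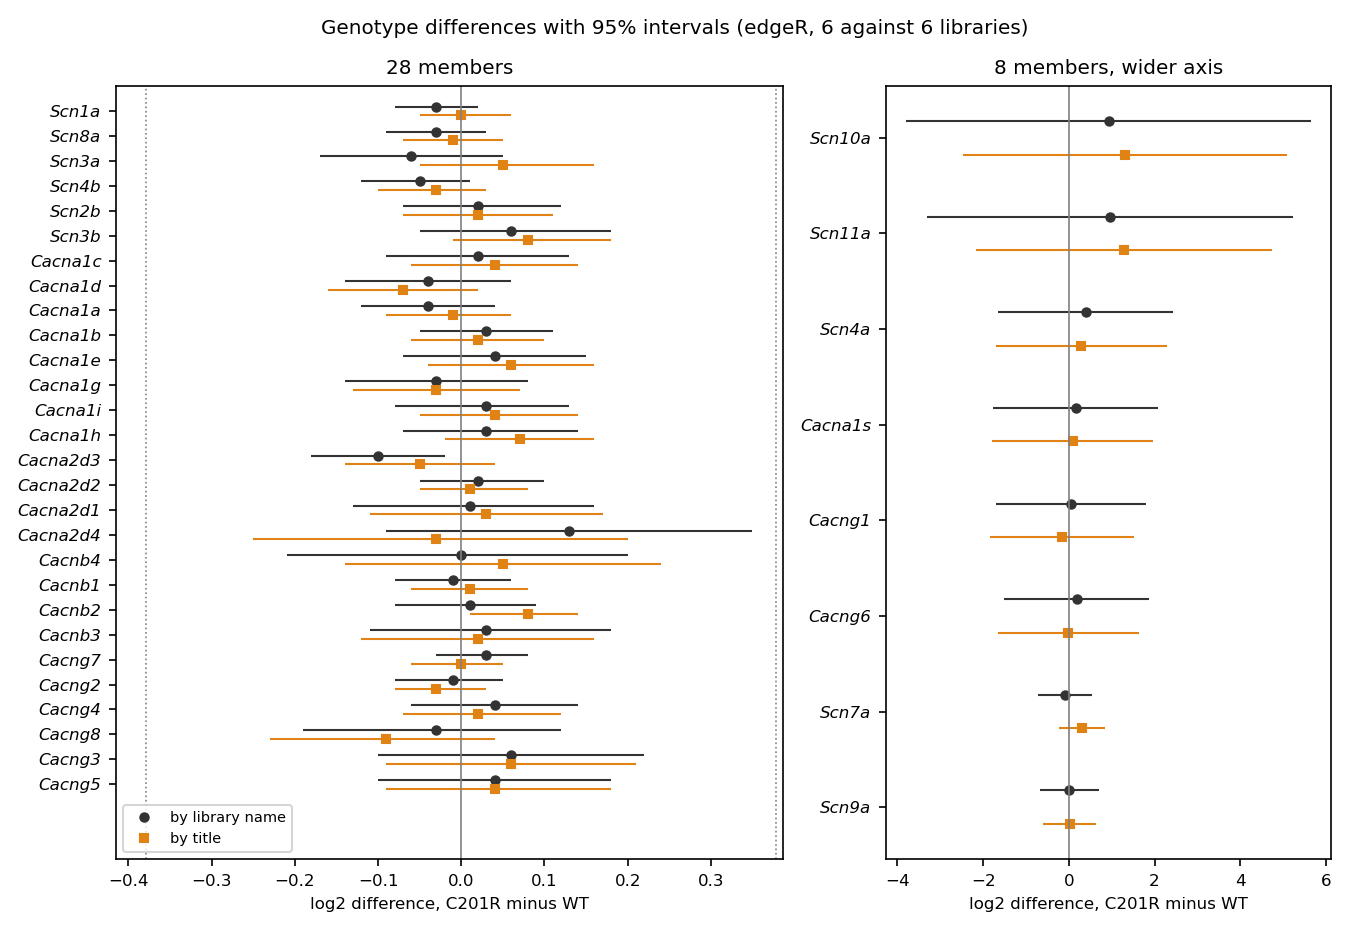
Fitted log2 differences, C201R minus WT, with 95% intervals from edgeR for 36 members, by library name (circles) and by title (squares), with dotted lines at a 1.3-fold change. On the left, intervals cluster around 0 and Cacna2d3 by library name sits lowest at -0.10; on the right, where the axis is wider, Scn10a and Scn11a have the widest intervals.

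For the alpha subunits of the central nervous system the genotypes overlapped almost fully. Scn1a, by library name, had a lowest, median and highest level of 391, 401 and 416 CPM in C201R and 389, 410 and 417 CPM in WT. Neither group lay apart from the other (log2 difference -0.03 ± 0.02 SE, edgeR adjusted p = 0.659; by title 0.00 ± 0.03). Scn8a had 474, 492 and 508 CPM in C201R and 487, 505 and 517 CPM in WT, again overlapping (-0.03 ± 0.03, edgeR adjusted p = 0.703; by title -0.01 ± 0.03). Scn3a had 26.9, 31.8 and 33.0 CPM against 26.1, 30.4 and 34.7 CPM. Its fitted difference was -0.06 ± 0.05 by library name and 0.05 ± 0.05 by title, so the sign depended on the label. Scn2a1, by library name, averaged 106 ± 4.58 CPM in C201R against 101 ± 8.32 CPM (SD, n = 6) in WT, with a fitted difference of 0.04 ± 0.04 (edgeR adjusted p = 0.784; by title 0.01 ± 0.04).

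Among sodium channel beta subunits, Scn4b was 405, 444 and 454 CPM in C201R and 440, 458 and 476 CPM in WT by library name. The lowest value came from library 2, labelled C201R under both schemes, and the groups overlapped (log2 difference -0.05 ± 0.03, edgeR adjusted p = 0.509). Over the 924 ways to divide the libraries 6 and 6, the exact permutation test of mean log2(CPM + 1) gave a two-sided p of 0.0216 by library name. It is not adjusted for the 25 genes tested in this way. By title the exact permutation p of Scn4b was 0.403 and its fitted difference -0.03 ± 0.03 (edgeR adjusted p = 0.904). Scn3b, a beta subunit of central neurons, had 28.6, 32.7 and 34.9 CPM in C201R and 28.1, 30.2 and 32.2 CPM in WT. Its difference was 0.06 ± 0.05 by library name and 0.08 ± 0.05 by title (edgeR adjusted p = 0.672 and 0.775).

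Cacna2d3 was the member of lowest p by library name. This alpha2delta subunit, which raises the number of calcium channels at the membrane, is encoded on chromosome 14 (28904943 to 29721864, GENCODE M21, GRCm38) by the longest gene among the members. Its level was 68.1, 73.4 and 77.6 CPM in C201R and 73.8, 79.0 and 81.1 CPM in WT. Libraries 1, 2 and 3, all C201R, were the 3 lowest, whereas libraries 4, 9 and 10, named C201R, lay inside the WT range. The log2 difference of -0.10 ± 0.04 (95% interval -0.18 to -0.02) did not pass (edgeR p = 0.0209, adjusted p = 0.293), and the exact permutation test gave p = 0.0152, unadjusted. By title it was -0.05 ± 0.04 (edgeR adjusted p = 0.864; exact permutation p = 0.249), and in the undisputed libraries -0.12 ± 0.05 (edgeR adjusted p = 0.336). Motor neuron and general neuron markers were lower in the same grouping, as given above, and their part in this difference was not tested. In bulk tissue, fewer cells of a type and less RNA per cell cannot be told apart.

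**Figure D3:**
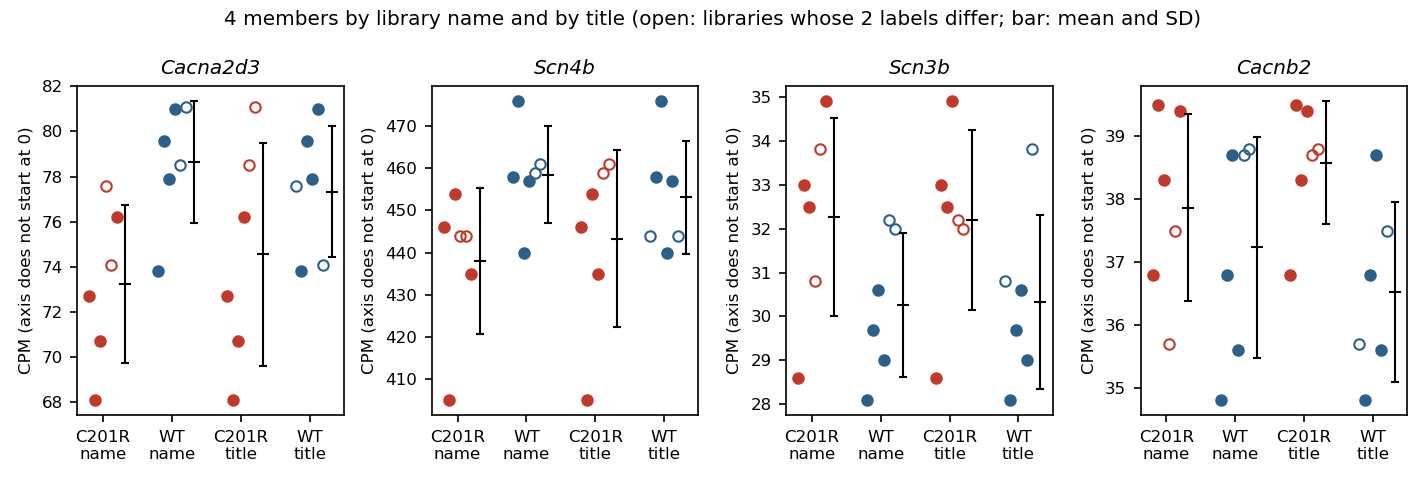
CPM of Cacna2d3, Scn4b, Scn3b and Cacnb2 in each library, grouped by library name and by title (C201R red, WT blue; open circles are the 4 libraries whose labels differ; black bars are mean and SD, n = 6). All groups overlap; the C201R mean of Cacna2d3 is 73.2 CPM by library name against 78.7 CPM in WT, and the axes do not start at 0.

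Cacna2d1, the alpha2delta subunit bound by gabapentin, and Cacnb4, the most abundant beta subunit, varied more than Cacna2d3 without a called difference; Cacna2d1 and Cacnb2 were chosen after their values were seen. Cacnb4 was highest in libraries 2 and 3 (185 CPM each) and lowest in libraries 11 (133), 6 (134) and 9 (135). Libraries 2 and 3 were also highest for Cacna2d1, at 96.4 and 97.7 CPM, and library 11 was lowest at 68.5 CPM. WT libraries 5 and 7 had the next highest Cacnb4, at 174 CPM each, so the groups overlapped, and the log2 difference of Cacnb4 was 0.00 ± 0.09 by library name and 0.05 ± 0.09 by title. Cacnb2 was the member of lowest p by title, and by that label had 36.8, 38.7 and 39.5 CPM in C201R and 34.8, 36.2 and 38.7 CPM in WT. Its difference was 0.08 ± 0.03 (edgeR adjusted p = 0.673), and by library name 0.01 ± 0.04. Cacna2d4 had 2.46 to 3.51 CPM over all libraries, and its sign differed between labels (0.13 ± 0.10 and -0.03 ± 0.10).

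Among the neuronal calcium channel pores the groups overlapped throughout. Cacna1a had 145, 163 and 168 CPM in C201R and 159, 165 and 169 CPM in WT by library name (log2 difference -0.04 ± 0.04, edgeR adjusted p = 0.714; by title -0.01 ± 0.04). Its lowest value was that of library 1. Cacna1c had 41.2, 48.4 and 49.0 CPM against 42.6, 45.9 and 48.5 CPM (0.02 ± 0.05; by title 0.04 ± 0.05). Cacna1g had 87.9, 104 and 109 CPM against 92.1, 105 and 107 CPM (-0.03 ± 0.05 under either label). Library 1 was the lowest library for 5 of the 9 alpha1 members: Cacna1a, Cacna1b, Cacna1c, Cacna1d and Cacna1g. In all it was lowest for 7 of 38 members and highest for 0, while it was lowest for 9.2% of all genes tested. Such counts were not particular to library 1. Library 2 was lowest for 8 members (12.0% of all genes) and library 6 for 7 (10.7%), and library 11 was also highest for 0. Cacng7 had 119, 123 and 127 CPM in C201R and 116, 121 and 123 CPM in WT (0.03 ± 0.03; by title 0.00 ± 0.03).

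**Figure D4:**
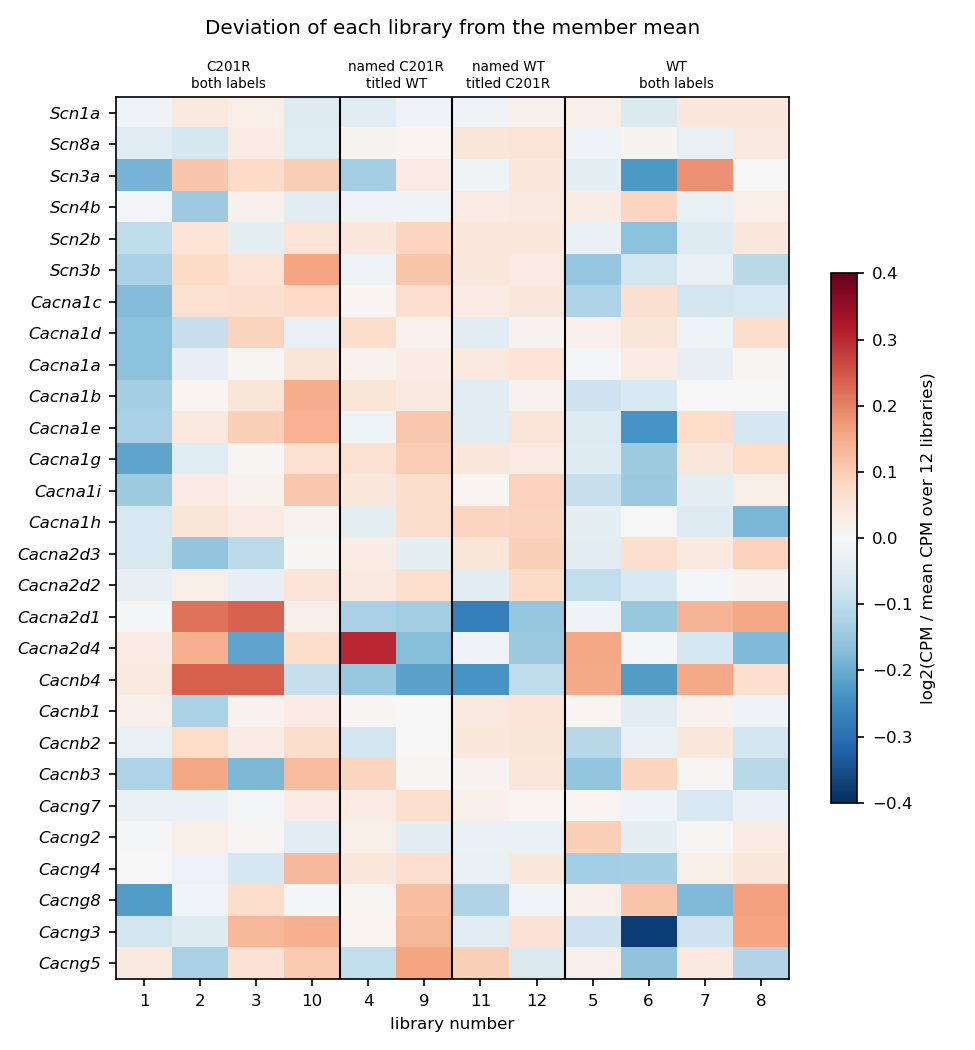
Log2 ratio of each library's CPM to the member's mean over 12 libraries, for 28 members of narrow spread, with libraries ordered by their 2 labels (red above the mean, blue below). Cacnb4 and Cacna2d1 are high in libraries 2 and 3, several calcium channel genes are low in library 1, and no row splits cleanly by genotype.

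Sodium channels of peripheral sensory neurons were present in some libraries and nearly absent in others. Scn10a and Scn11a encode the tetrodotoxin-resistant channels of nociceptors, whose cell bodies lie in the dorsal root ganglia, outside the cord. Both genes lie side by side on chromosome 9 of GRCm38 (Scn10a 119608456 to 119719322, Scn11a 119753759 to 119825456, both on the minus strand). Because they moved together, the 250 bases before each RefSeq start (build GRCm38.p6) are shown, 5′ to 3′, with the E-box CANNTG in capitals. That motif reads the same on both strands. Scn10a covers chr9:119719033-119719282 and Scn11a chr9:119825457-119825706. In GENCODE M21 the Scn10a window lies inside its gene, whereas the Scn11a window lies just outside its own.
Scn10a: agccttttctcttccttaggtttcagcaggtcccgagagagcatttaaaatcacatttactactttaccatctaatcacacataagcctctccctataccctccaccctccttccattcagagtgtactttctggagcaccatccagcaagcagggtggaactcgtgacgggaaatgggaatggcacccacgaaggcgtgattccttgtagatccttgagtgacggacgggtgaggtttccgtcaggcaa
Scn11a: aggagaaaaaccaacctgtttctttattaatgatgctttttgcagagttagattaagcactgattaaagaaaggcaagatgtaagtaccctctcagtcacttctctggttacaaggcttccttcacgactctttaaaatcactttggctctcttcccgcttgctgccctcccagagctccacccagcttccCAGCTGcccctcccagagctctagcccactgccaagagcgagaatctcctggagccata
The Scn10a window held 0 E-boxes and the Scn11a window 1, while 66.2% of 32851 RefSeq promoter windows of this length held at least 1. A match is a string of letters, not a site shown to be bound.

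Scn10a was 24.6, 8.53, 3.11, 30.4, 12.2 and 16.8 CPM in libraries 2, 4, 5, 6, 10 and 12. In libraries 1, 3, 7, 8, 9 and 11 it did not exceed 0.0938 CPM, with 0 counts in libraries 8 and 9 (3 counts there would be 0.11 and 0.0784 CPM; this limit covers counting error only). Scn11a was 16.7, 4.86, 1.54, 15.8, 5.39 and 9.07 CPM in the first 6 libraries and at most 0.15 CPM in the others. The same 6 libraries were those of highest sensory transcripts: Avil, Mrgprd, P2rx3 and Trpv1 summed to between 6.35 and 34.6 CPM there and to between 1.9 and 3.38 CPM elsewhere. Mrgprd was at 0 in libraries 3, 7, 8 and 11. Over the whole list of 10 sensory markers the sums were 60.5 to 135 CPM in C201R and 95.1 to 212 CPM in WT by library name, and 60.5 to 158 CPM and 64.4 to 212 CPM by title. These sums do not give the direction of most markers: under either label 8 were higher in C201R and 2 lower, with 0 called by edgeR. By library name the lower 2 were Calca (-1.17 ± 0.34, edgeR adjusted p = 0.158) and Prph (-0.36 ± 0.16, edgeR adjusted p = 0.369). Prph was also counted among the motor neuron markers.

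Scn9a, chosen after its values were seen, followed the same division at a higher base. It lay between 12.8 and 23.0 CPM in those 6 libraries and between 7.94 and 11.0 CPM in the other 6. Scn9a, Scn10a and Scn11a were the 3 of 38 members whose CPM did not overlap between the sets of 6, which 0.326% of all genes tested did. The sets were made after the data were seen and match the division of Scn10a and Scn11a, so this count only describes them and is not a test. Scn10a and Scn11a had 7 and 18 counts over the 6 libraries of low sensory transcripts. They met the minimum mean of 10 counts only through the other 6. The high libraries comprised 3 of each genotype by library name, and 3 of each by title. Between genotypes the log2 difference was 0.93 ± 2.18 for Scn10a, 0.97 ± 1.97 for Scn11a and 0.01 ± 0.32 for Scn9a by library name (edgeR adjusted p = 0.913, 0.894 and 0.994). By title it was 1.32 ± 1.74, 1.29 ± 1.59 and 0.02 ± 0.29 (edgeR adjusted p = 0.933, 0.925 and 0.999). Sensory marker transcripts moved with these 3 members from library to library, and their part in the levels was not tested.

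Scn7a, also chosen after its values were seen, is known from glia and Schwann cells as well as sensory neurons. It ranged from 8.12 CPM in library 8 to 27.4 CPM in library 6 and overlapped between the 2 sets. Schwann cell markers ranged from 0.0428% of counts in library 8 to 0.196% in library 5, where Scn7a was 24.1 CPM. The next lowest share, 0.0652% in library 2, came with 23.4 CPM of Scn7a, and the next highest, 0.174% in library 11, with 17.7 CPM. Mean Scn7a was 1.5 times as high in the 6 libraries of high sensory transcripts as in the other 6. The part of either cell type in the level of Scn7a was not tested. The genotype difference of Scn7a was -0.09 ± 0.30 by library name and 0.31 ± 0.25 by title (edgeR adjusted p = 0.936 and 0.872).

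Channel genes of skeletal muscle showed a separate pattern. Scn4a is the muscle sodium channel, and Cacna1s is the voltage sensor of excitation-contraction coupling, which works with the subunits encoded by Cacnb1 and Cacng1. Windows of 250 bases before their RefSeq starts are shown for the pair Scn4a (chr11:106349391-106349640, minus strand) and Cacna1s (chr1:136052561-136052810, plus strand), again with E-boxes, the recognition sequence of myogenic factors, in capitals. In GENCODE M21 Scn4a spans 106318592 to 106353288, so its window lies inside that gene. The Cacna1s window runs past its GENCODE start at 136052750.
Scn4a: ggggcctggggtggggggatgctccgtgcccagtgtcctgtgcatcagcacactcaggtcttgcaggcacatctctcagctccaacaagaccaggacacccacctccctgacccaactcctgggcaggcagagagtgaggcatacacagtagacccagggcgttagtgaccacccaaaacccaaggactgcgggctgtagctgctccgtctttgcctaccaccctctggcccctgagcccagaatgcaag
Cacna1s: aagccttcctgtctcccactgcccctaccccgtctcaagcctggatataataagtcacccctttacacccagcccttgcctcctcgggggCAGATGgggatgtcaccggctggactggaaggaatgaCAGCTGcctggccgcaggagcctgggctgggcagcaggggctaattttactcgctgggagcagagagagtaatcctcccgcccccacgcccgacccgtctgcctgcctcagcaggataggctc
Cacna1s held 2 E-boxes, as 31.8% of all windows did with 2 or more, and Scn4a 0. The core string of a MEF2 site, CTA and TAG separated by 4 bases (the same on both strands), was found in 3.2% of all windows. It was in neither of these, nor in those of Scn10a and Scn11a.

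Cacna1s was 14.0, 28.3, 12.2 and 22.2 CPM in libraries 1, 3, 6 and 8 and between 0.342 and 4.92 CPM in the other 8. Scn4a was 5.79, 10.3, 4.09 and 6.99 CPM in those 4 libraries and at most 1.56 CPM elsewhere. Libraries 1, 3, 6 and 8 were also the 4 with over 0.15% of counts in 13 skeletal muscle transcripts (0.189%, 0.368%, 0.157% and 0.29%), against at most 0.086% in the rest. Cacng1 followed with 0.657 to 1.68 CPM in the 4 and at most 0.547 CPM in the others, where library 2 had 0 counts. Cacng6 had 0.77 to 1.65 CPM and at most 0.431 CPM. These were the 4 of 38 members without overlap between the 2 sets, beside 1.29% of all genes. Cacng1 and Cacng6 had 135 and 136 counts over the 4 libraries and 64 and 55 over the other 8. They met the minimum mean of 10 counts only through the 4, so their place in this count is not independent of the split. Cacnb1 did not share the pattern and lay between 41.2 and 46.6 CPM over all 12 libraries.

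Of the libraries rich in muscle transcripts, 1 and 3 were C201R and 6 and 8 WT under both labels. Differences between genotypes by library name were 0.39 ± 0.94 for Scn4a, 0.16 ± 0.89 for Cacna1s, 0.06 ± 0.81 for Cacng1 and 0.18 ± 0.78 for Cacng6 (edgeR adjusted p between 0.915 and 0.989). By title they were 0.29 ± 0.93, 0.09 ± 0.87, -0.16 ± 0.78 and -0.01 ± 0.76 (edgeR adjusted p between 0.984 and 0.999), so the sign for Cacng1 and Cacng6 depended on the label. Muscle transcripts moved with these 4 members, and their part in the levels was not tested. The highest muscle and sensory levels did not fall in the same libraries, apart from library 6.

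**Figure D5:**
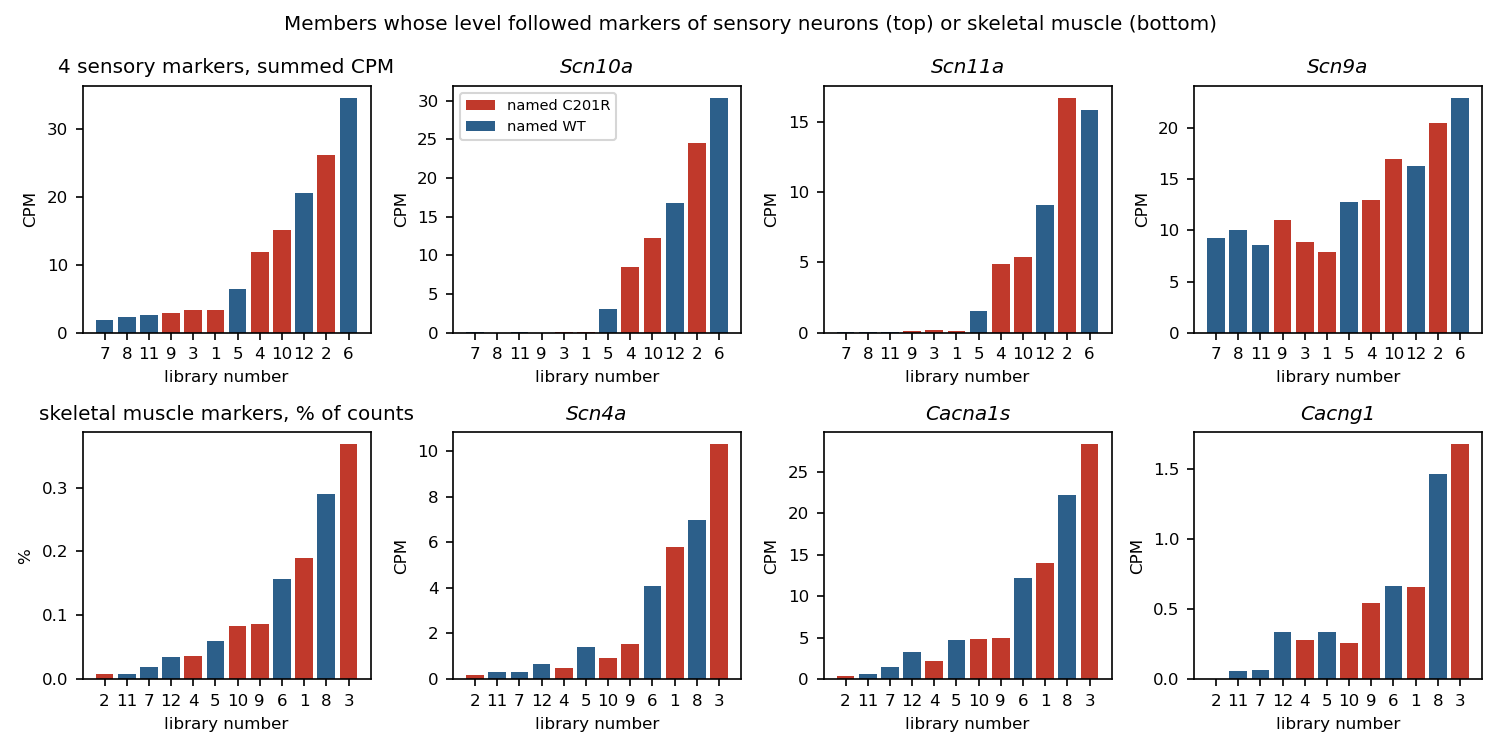
Bars by library number (ordered by marker level, coloured by library name): summed CPM of 4 sensory markers with Scn10a, Scn11a and Scn9a (top), and the percentage of counts in skeletal muscle markers with Scn4a, Cacna1s and Cacng1 (bottom). Scn10a and Scn11a exceed 1 CPM only in the 6 libraries of highest sensory markers, and the muscle channel genes are highest in libraries 1, 3, 6 and 8; both colours occur at each end.

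Proteins that anchor, modify or partner these channels were followed as 3 lists. Of 22 axon initial segment and node proteins, 4 were higher and 18 lower by library name (median log2 difference -0.04), and 0 passed the edgeR test (1 at an unadjusted p under 0.05, or 4.55%, beside 12.8% of all genes; DESeq2 called 0). The general neuron markers given above were lower in the same grouping, and their part in this lean was not tested. Kcna1, the potassium channel of the juxtaparanode, and Hapln2, a link protein of the nodal matrix, had the lowest p by library name (-0.06 ± 0.03 and -0.11 ± 0.06; edgeR adjusted p = 0.35 and 0.445; by title -0.02 ± 0.03 and -0.06 ± 0.06). By title 7 were higher and 15 lower, with 0 called by edgeR or DESeq2 and 2 at an unadjusted p under 0.05, or 9.09%, beside 6.77% of all genes.

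Of 32 measured channel partners and regulators, 14 were higher and 18 lower by library name, and 0 passed by edgeR or DESeq2 (6 at an unadjusted edgeR p under 0.05, or 18.8%, beside 12.8% of all genes). Fgf11, a member of the intracellular FGF family that binds sodium channel tails, was 43.8, 47.6 and 48.8 CPM in C201R and 50.5, 51.1 and 53.9 CPM in WT. Its groups did not overlap, as was the case for 1.64% of all genes, yet the difference of -0.12 ± 0.03 missed the threshold (edgeR adjusted p = 0.108; DESeq2 adjusted p = 0.0642). By title the groups of Fgf11 overlapped, at 43.8 to 53.9 CPM against 47.3 to 53.5 CPM, with a difference of -0.04 ± 0.04 (edgeR adjusted p = 0.908). For the list by title 13 were higher and 19 lower, 0 were called by edgeR or DESeq2, and 1 (3.12%, beside 6.77% of all genes) had an unadjusted edgeR p under 0.05.

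Of 10 AMPA receptor genes and further auxiliary proteins that share the receptor with TARPs, 4 were higher and 6 lower by library name, 3 of 10 had an unadjusted edgeR p under 0.05, beside 12.8% of all genes, and 0 passed by edgeR or DESeq2. Cnih3, an AMPA receptor chaperone, was 3.98, 4.31 and 4.63 CPM in C201R and 3.06, 3.59 and 4.10 CPM in WT (0.25 ± 0.09, edgeR adjusted p = 0.249; by title 0.07 ± 0.11). Gria4, an AMPA receptor subunit, differed by -0.08 ± 0.03 (edgeR adjusted p = 0.349; by title -0.05 ± 0.04). By title the counts were 5 higher and 5 lower, with 0 called and 0 at an unadjusted p under 0.05 by edgeR or DESeq2.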

How the data were processed

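PolyA-selected, 75-base paired-end RNA-seq of whole spinal cord was deposited as 1 table per library with, per the file headers, an expected count, TPM, FPKM, length and effective length for each gene. Per the submitters' processing notes, the authors used Bowtie2 2.2.0 and RSEM 1.2.12; the genome build is not given in the sources used here. RSEM shares reads among similar genes, so the authors' expected counts can be fractional (over 0.005 from a whole number in at least 1 library for 13 members), and values of close paralogs are uncertain. Deposited TPM served for levels and for alternatives; the deposited FPKM (length-scaled by the authors) was not used.

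Expected counts were rounded. Genes were filtered (filterByExpr, 4 titled groups), scaled by TMM and tested with edgeR 4.0.16 (R 4.3.3; quasi-likelihood, titled sex as a term, Benjamini-Hochberg over all genes, threshold 0.05). Standard errors are the log2 difference over the square root of F. The 25 genes followed across the alternatives were also tested singly by exact permutation (scipy 1.17.1), without adjustment for their number. The fits were tested on simulated data. Members, lists and alternatives (DESeq2 1.42.0, limma 3.58.1, sva 3.50.0 and others) were chosen with earlier results of these data known. Members named library by library are the 10 of lowest p by library name, the highest of each class by TPM, and those of muscle and sensory neurons, 20 in all; of each list, the 2 of lowest p; a few of these are not reported here. Positions are from GENCODE M21, matched by gene ID (96.62% of IDs); promoters, found for 28 of 38 members by symbol, are from RefSeq.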

Additional observations from a re-analysis of the deposited data

Results flagged for a closer look

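Among 76 tests of a group of 6 libraries for 1 of 19 members, 7 held a library far from the other 5 (gap over 0.625 of the range); chance alone gives about 1 in 20 for a single group. The groups by library name and by title share libraries, so these tests are not independent, and Cacna1c in library 1 and Cacnb1 in library 2 each count under both labels. By library name, library 2 was low among C201R for Cacnb1 (41.2 CPM, next 44.9), and high for Scn11a (16.7 CPM, next 5.39). Library 1 was low for Cacna1c (41.2 CPM, next 46.7). By title, library 1 was again low for Cacna1c among C201R (41.2 CPM, next 47.4) and library 2 for Cacnb1 (41.2 CPM, next 45.4). Library 6 was high among the libraries titled WT for Scn10a (30.4 CPM, next 8.53) and Scn11a (15.8 CPM, next 4.86).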

How the results depend on the processing

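No member was called under any alternative run: 26 for the library-name genotype, 24 for the title genotype and 18 for the undisputed libraries, including leaving out each library in turn. The lowest adjusted p of any member over these alternatives ran from 0.119 (Scn3b, with library number as a term) to 0.935 by library name, from 0.422 to 0.999 by title, and from 0.0756 (Scn11a, DESeq2) to 0.604 in the undisputed libraries. Members at an unadjusted p under 0.05 numbered 0 to 8, 0 to 3 and 0 to 6. The 8 came with library number as a term, where 2856 of 17765 genes had such a p. The 3 came without library 1 or without library 9 (882 of 18037 and 1298 of 18035 genes), and the 6 without library 1 (1364 of 17703). Among the 3 lists, 1 gene was called once: Cabp1 by library name with library number as a term (0.11 on the log2 scale, edgeR adjusted p = 0.0288). Of all 17765 genes, that fit called 56 higher and 179 lower.

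Cacna2d3 by library name stayed below 0 under all 26 alternatives, from -0.12 to -0.02, and its edgeR p without each library in turn was between 0.00681 and 0.0845. Of 25 genes followed, 6 kept their sign under every alternative by library name, 6 by title and 8 in the undisputed libraries. A term for summed sensory markers, and the 6 libraries of high or of low sensory transcripts fitted alone, were added after seeing the data and called 0 members; Scn10a and Scn11a fell below the filter in the low set, where 36 members were tested. Without the 4 libraries of over 0.15% muscle transcripts the lowest adjusted p was 0.648 by library name. No paired analysis was possible because every library carries its own number and none is shared between genotypes. Counts of 0 to 870 for the sensory channel genes and 0 to 56 for Cacng1 and Cacng6 limit what could be seen for these members.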
